A study of Mus musculus with 12 samples.

Results

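Fgf21 and Gdf15, a pair of hormones that the liver secretes under stress, were followed in mouse liver. Klb, the gene of the Fgf21 co-receptor, and the receptor genes Fgfr1 and Fgfr4 were followed with them. These 5 genes were chosen by name, as hepatic hormones known to respond to protein restriction and stress with their liver receptors. They are 5 of the 27179 genes in the count table, and each passed the filter on low counts.

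The study sequenced bulk liver RNA from 12 mice in 4 groups of 3. All were male mice, 8 weeks old at the start, that were given plasmids by hydrodynamic injection into the tail vein, with a Sleeping Beauty transposase that inserts them into the genome of some hepatocytes. Mice were fed chow (CD) or a low-protein diet (LPD) from 1 week before injection, and were injected with empty vector (Vec) or with human c-MET and ΔN90-β-catenin, a β-catenin without its N terminus, both driven by the EF1α promoter. All groups were collected when the CD-fed c-MET/β-catenin mice reached their endpoint, so Vec livers were collected at the same time. The paper reports that LPD reduced the tumor burden of c-MET/β-catenin mice at that time. In comparisons with the LPD c-MET/β-catenin livers, the diet and the amount of tumor therefore cannot be told apart. The sample titles call the Vec mice wild type and the chow diet chow, while the columns of the chow-fed mice carry the letters HPD, and the chow labels were followed here. The strain of these mice is not in the labels.

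Fgf21 is an endocrine fibroblast growth factor made mainly by hepatocytes, and its release during protein restriction changes feeding and energy use through the brain and adipose tissue. It signals through a receptor tyrosine kinase, chiefly Fgfr1, only where the co-receptor β-Klotho, encoded by Klb, is present. Hepatocytes hold Klb with Fgfr4, the pair through which the gut hormone Fgf15 restrains bile acid synthesis. Gdf15 is a distant member of the TGF-β family that is released by stressed cells and acts on a brainstem receptor. The transcription factor Atf4, which is translated when amino acids run short or proteins misfold, is known to raise both hormone genes.

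The region before each hormone gene is shown because Atf4 binds a short element there in some of its targets, the CARE (C/EBP-ATF response element). Fgf21 lies on the minus strand of chromosome 7 at chr7:45613890-45615490 and Gdf15 on the minus strand of chromosome 8 at chr8:70629393-70632470, both protein coding, in GRCm38, the assembly that mm10 names. The 250 bases upstream of a RefSeq start of each gene (GRCm38.p6, minus strand, chr7:45615491-45615740 and chr8:70632457-70632706) read 5′ to 3′ as follows, with capitals marking matches to CARE, searched as TGATGNAAN, and to the E-box CACGTG, both on either strand.
Fgf21: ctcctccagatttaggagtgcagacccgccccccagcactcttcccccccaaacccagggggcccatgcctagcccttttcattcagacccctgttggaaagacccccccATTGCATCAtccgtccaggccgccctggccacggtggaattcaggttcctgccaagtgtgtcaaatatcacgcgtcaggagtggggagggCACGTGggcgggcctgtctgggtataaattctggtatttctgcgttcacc
Gdf15: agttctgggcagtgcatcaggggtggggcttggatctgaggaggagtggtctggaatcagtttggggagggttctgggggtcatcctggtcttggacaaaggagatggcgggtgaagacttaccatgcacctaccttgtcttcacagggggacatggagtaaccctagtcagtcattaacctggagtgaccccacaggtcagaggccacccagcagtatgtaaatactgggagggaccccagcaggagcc
Fgf21 held a CARE match on the opposite strand, from 140 to 132 bases before the start, and an E-box from 50 to 45 bases before it. The Gdf15 window shown held no match to either motif, and the window of its other annotated start held an E-box and no CARE. The windows of Klb and Fgfr4 held neither. A CARE match was present in 3.95% of the 32851 mouse promoter windows of 300 bases (250 before and 50 after the start) and in 2.43% of the 13754 windows of tested genes, and an E-box in 7.15% and 9.68%. A direct repeat of the type that Ppara binds, searched as AGGTCA, any base and AGGTCA again, was in no member's window and in 0.0396% of all windows. A match describes letters in this window and does not show that a factor was bound.

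The libraries held between 19476209 and 31990267 counts, and 13947 genes passed the filter. Every level here is given in CPM, a gene's count divided by the scaled total of its library and multiplied by a fixed constant. Hepatocyte markers (5 genes, Alb and Apoa1 among them) summed to between 63200 and 113000 CPM over all libraries. Of these Ttr (−0.87) and Apob (−0.58) were called lower on the log2 scale with c-MET/β-catenin on CD, and Alb (−0.20), Apoa1 (0.33) and Hnf4a (−0.09) were not called. The labels name hepatocytes as the cell type, while the material was whole liver tissue and held markers of other cell types. Stellate cell and fibroblast markers (6 genes) summed to 93.5 to 429 CPM in the CD c-MET/β-catenin livers and to 56.0 to 104 CPM in the other groups, and cholangiocyte markers (5 genes) to 121 to 382 CPM against 36.8 to 57.6 CPM. Few genes carried these sums: with c-MET/β-catenin on CD the matrix and contractile genes Col1a1 (3.92), Col3a1 (1.85) and Acta2 (2.91) rose on the log2 scale, while the stellate marker Lrat fell (−1.42) and Des (0.50) and Pdgfrb (0.49) were not called. Of the cholangiocyte markers Spp1 (2.87), by far the most abundant, and Krt19 (2.91) rose, and Krt7 (0.33), Epcam (−0.50) and Sox9 (−0.41) were not called. The sum of neutrophil markers (3 genes) lay between 4.79 and 12.7 CPM for the CD c-MET/β-catenin group and between 1.19 and 3.39 CPM elsewhere, with S100a8 (2.20) and S100a9 (1.95) called on CD and Ly6g at or near 0. Of 7 macrophage and 4 T and NK cell markers, Cd68 (1.71) and Cd8a (3.72) were called on CD, and of 6 endothelial markers, which summed to 96.3 to 210 CPM, Clec4g was lower (−1.09). In c-MET/β-catenin livers the called markers of these lists differed between diets in the opposite direction (Clec4g 1.37, Apob 0.50, Col1a1 −3.89, Spp1 −2.58 and S100a9 −2.21 among them). That comparison shares the CD c-MET/β-catenin libraries. Ttr (0.57) and Cd8a (−0.83) were not called in it, and Apoa1 was lower on LPD (−0.86). No marker was called on LPD or between diets in Vec livers. Acinar and adipocyte markers summed to at most 1.83 CPM and 1.38 CPM. Dataset numbers in the header of the table fall into 3 runs: replicates 1 and 2 of CD c-MET/β-catenin are alone in the first, and only the middle run, of 7 libraries, holds all 4 groups. LPD Vec replicate 1 is in the last run with replicates 1 and 2 of CD Vec, and the other LPD libraries are in the middle run. In bulk tissue, fewer cells of a type and less RNA per cell cannot be told apart.

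Fgf21 mRNA had its lowest mean in the CD Vec livers. The CD Vec libraries held 4.28, 1.65 and 2.45 CPM (replicates 1 to 3), a mean of 2.79 ± 1.35 (SD, n = 3). The LPD Vec libraries held 11.5, 42.5 and 41.2 CPM, a mean of 31.7 ± 17.6 (SD, n = 3). Every LPD Vec library was therefore above every CD Vec library, with replicate 1, the LPD library of the last header run, far below the other LPD Vec livers. On CD, the c-MET/β-catenin livers held 11.9, 26.1 and 4.27 CPM (14.1 ± 11.1, SD, n = 3), and the LPD c-MET/β-catenin livers held 24.6, 43.6 and 51.7 CPM (40.0 ± 13.9, SD, n = 3). The lowest CD c-MET/β-catenin library, replicate 3, was level with the highest CD Vec library, so these groups overlapped by a narrow margin. As raw counts, Fgf21 had 29 to 84 reads in the CD Vec libraries and 114 to 1242 in the rest.

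Gdf15 mRNA was also lowest in the CD Vec livers, at 6.11, 4.04 and 4.06 CPM (4.74 ± 1.19, SD, n = 3). The CD c-MET/β-catenin livers held 39.0, 13.8 and 10.2 CPM (21.0 ± 15.7, SD, n = 3). All 3 lay above all CD Vec livers, and replicate 1 stood far above the other 2. The LPD Vec livers held 9.21, 13.9 and 10.7 CPM (11.3 ± 2.37, SD, n = 3), and the LPD c-MET/β-catenin livers 8.16, 16.5 and 15.1 CPM (13.3 ± 4.46, SD, n = 3). Both LPD groups lay above the CD Vec livers without overlap and overlapped with each other. Within the CD c-MET/β-catenin group the hormones had different highest libraries, replicate 2 for Fgf21 and replicate 1 for Gdf15.

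**Figure D1:**
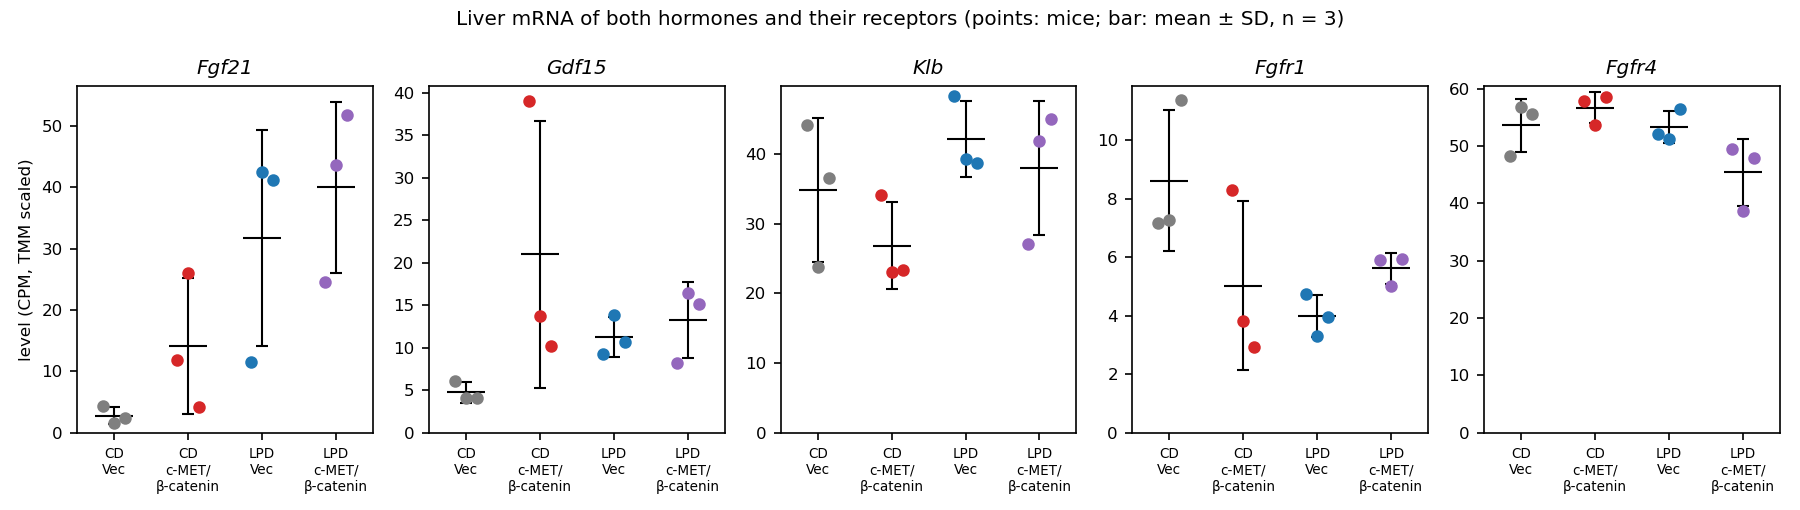
Level of each gene in CPM after TMM scaling (vertical axis, starting at 0, with its own range in each panel) in the 4 groups. Each point is a mouse and the bars show mean ± SD (n = 3). Fgf21 and Gdf15 have their lowest means in the CD Vec livers, where no library exceeds 4.28 and 6.11 CPM, and Fgfr4 stays between 38.8 and 58.7 CPM in all 12 libraries.

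On CD both hormone genes were higher in the c-MET/β-catenin than in the Vec livers. The difference was not called with a term for the header run, which leaves replicate 3 alone to set the CD c-MET/β-catenin level. Fgf21 was 5.0-fold higher than in CD Vec (log2 fold change 2.32 ± 0.69, SE; edgeR quasi-likelihood test, Benjamini-Hochberg adjusted p = 0.0224) and Gdf15 4.43-fold higher (2.15 ± 0.47, SE; edgeR adjusted p = 0.00421). Of the 5 genes 2 were thus called at an adjusted p under 0.05, where 35.4% of all tested genes were called in this comparison, so 2 of 5 is close to the background. Of the 5, 1 (Gdf15) had groups without overlap, against 42.6% of all tested genes. The Fgf21 call rested on single libraries: its adjusted p was 0.0797 without CD Vec replicate 2, 0.0599 without CD Vec replicate 3 and 0.0941 without CD c-MET/β-catenin replicate 2, within a range of 0.00542 to 0.973 over 20 alternatives. The Gdf15 call was made whichever of the 12 libraries was left out, with a log2 fold change of 1.33 to 2.47, the lowest being that without CD c-MET/β-catenin replicate 1.

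With a term for the header runs, the oncogene effect on CD was −0.08 for Fgf21 and 1.05 for Gdf15 on the log2 scale (edgeR adjusted p = 0.973 and 0.393), and within the middle run alone it was 0.79 and 1.31 (edgeR adjusted p = 0.491 and 0.156). In that run each CD group is represented by 1 library, so the spread comes from the LPD libraries, and the lone CD libraries are assumed to vary like them. The header term likewise rests the CD c-MET/β-catenin level on replicate 3, because replicates 1 and 2 make up the whole first run. The run, the summed stellate cell and fibroblast markers, at 429 and 352 CPM in replicates 1 and 2 against 93.5 in replicate 3, and the level of Fgf21, at 11.9 and 26.1 CPM against 4.27, moved together within the CD c-MET/β-catenin group. Summed neutrophil markers, at 12.7, 5.51 and 4.79 CPM in replicates 1 to 3, were highest where Gdf15 was highest, at 39.0, 13.8 and 10.2 CPM. The part of any of these in the results was not tested.

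On LPD, neither hormone gene passed the test for an oncogene effect. The log2 fold change was 0.33 ± 0.61 (SE) for Fgf21 and 0.24 ± 0.44 (SE) for Gdf15, both with an edgeR adjusted p of 0.924. None of the 5 genes was called, with 1.32% of all tested genes called (1545 genes had an unadjusted p under 0.05, none of the 5 among them). DESeq2 called none of the 5 here either. Fgfr1 was higher and Fgfr4 lower in every LPD c-MET/β-catenin library than in every LPD Vec library, which makes 2 of 5 without overlap, against 25.2% of all tested genes.

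Low dietary protein in the absence of the oncogenes gave the largest fold change of Fgf21 among the single-factor comparisons. Fgf21 was 11.3-fold higher in LPD Vec than in CD Vec livers (log2 fold change 3.5 ± 0.71, SE; unadjusted p = 0.000422), and ranked 85 of the 13947 tested genes by p. Its edgeR adjusted p was 0.0685, so it was not called. The range over 20 alternatives was 0.000242 to 0.265, with DESeq2 giving 0.000242 for the same fold change and 0.0425 as the lowest value without a library. With a term for the header runs the difference was 2.97 ± 0.62 (SE; edgeR adjusted p = 0.127), and in the middle run alone 4.08 ± 0.58 (SE; edgeR adjusted p = 0.0631). Gdf15 was 2.37-fold higher (1.25 ± 0.46, SE; edgeR adjusted p = 0.358, unadjusted p = 0.02) and was not called in any of the 20 alternatives. None of the 5 genes was called, where 0.308% of all tested genes were (1377 genes had an unadjusted p under 0.05, and Fgf21, Gdf15 and Fgfr1 were among them, while DESeq2 called Fgf21 alone of the 5). Groups did not overlap for 3 of 5 (Fgf21 and Gdf15 higher, Fgfr1 lower), against 17.2% of all tested genes.

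In c-MET/β-catenin livers, LPD was accompanied by a log2 difference of 1.51 ± 0.62 (SE) in Fgf21, 2.85-fold, and of −0.66 ± 0.44 (SE) in Gdf15. Neither passed (edgeR adjusted p = 0.115 and 0.318), and both genes had overlapping groups. None of the 5 was called, against 20.0% of all tested genes, and unadjusted p was under 0.05 for Fgf21 and Fgfr4, as for 4703 genes in all. DESeq2 called none of the 5. The groups were apart for 1 of 5 (Fgfr4, lower on LPD), against 39.3% of all tested genes. Without CD c-MET/β-catenin replicate 2 the Fgf21 difference was 2.30 and passed (edgeR adjusted p = 0.0366, range over 20 alternatives 0.0218 to 0.269).

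The interaction, that is the oncogene effect on LPD minus that on CD, was −1.99 ± 0.91 (SE) for Fgf21 and −1.91 ± 0.64 (SE) for Gdf15 on the log2 scale. Neither was called (edgeR adjusted p = 0.198 and 0.0836, unadjusted p = 0.0519 and 0.0115), so a different oncogene effect on the diets was not shown for either. None of the 5 was called, against 8.91% of all tested genes. DESeq2 gave −1.91 for Gdf15 with an adjusted p of 0.0214, and called no other member.

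**Figure D2:**
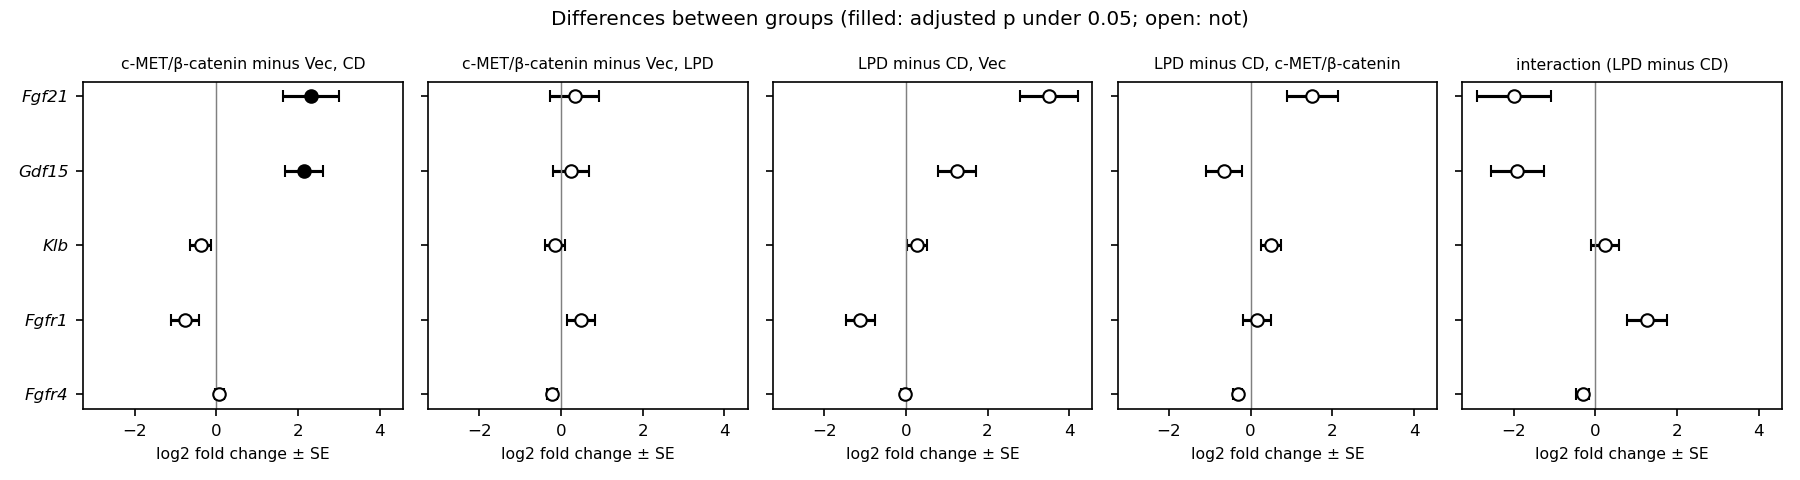
Log2 fold change of each gene (horizontal axis, bars ± SE from the edgeR fit) in 5 comparisons, one per panel. Filled points have an adjusted p under 0.05. The only filled points are Fgf21 (2.32) and Gdf15 (2.15) for c-MET/β-catenin minus Vec on CD, while the Fgf21 point farthest right, 3.5 for LPD minus CD in Vec livers, is open.

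The order of the group means differed between the hormones. The order for Fgf21 was CD Vec, then CD c-MET/β-catenin, then LPD Vec, then LPD c-MET/β-catenin, and of the neighbours in that order only the first pair passed the test (CD c-MET/β-catenin and LPD Vec differed by −1.18 ± 0.62, SE, edgeR adjusted p = 0.181, in a contrast with 30.2% of tested genes called). The ends of the order, LPD c-MET/β-catenin against CD Vec, differed 14.2-fold (3.83 ± 0.71, SE; edgeR adjusted p = 0.0138, with 4.71% of tested genes called). Gdf15 was ordered CD Vec, LPD Vec, LPD c-MET/β-catenin and CD c-MET/β-catenin, and no pair of neighbours in that order passed. LPD c-MET/β-catenin against CD Vec was 1.48 ± 0.46 (SE) for Gdf15 and did not pass (edgeR adjusted p = 0.098). Per kilobase of exon, which allows the genes to be compared, Fgf21 exceeded Gdf15 3.06-fold in the median library, with a range of 0.592-fold to 7.49-fold over the 12.

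None of the receptor genes passed the test in any comparison, neighbours in the order of their group means included. Klb (chr5:65348411-65386957, plus strand), the co-receptor, held 44.3, 23.8 and 36.6 CPM in CD Vec, 34.1, 23.1 and 23.4 in CD c-MET/β-catenin, 48.4, 39.3 and 38.7 in LPD Vec, and 27.1, 41.9 and 45.1 in LPD c-MET/β-catenin. Its groups overlapped in all 4 single-factor comparisons, and its log2 fold changes lay between −0.38 and 0.50, none of which passed (edgeR adjusted p from 0.18 to 0.916). The means were ordered CD c-MET/β-catenin, CD Vec, LPD c-MET/β-catenin and LPD Vec. The ends of this order did not overlap (CD c-MET/β-catenin minus LPD Vec, −0.65 ± 0.25, SE) and did not pass either (edgeR adjusted p = 0.0673).

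Fgfr4 (chr13:55152818-55168759, plus strand), an FGF receptor of hepatocytes, was the steadiest of the 5. It held 48.4, 56.9 and 55.6 CPM in CD Vec, 57.9, 53.6 and 58.7 in CD c-MET/β-catenin, 52.1, 51.3 and 56.5 in LPD Vec, and 49.5, 38.8 and 48.0 in LPD c-MET/β-catenin. The last group was below both LPD Vec and CD c-MET/β-catenin without overlap, by 0.23 ± 0.12 and 0.32 ± 0.12 (SE) on the log2 scale. Neither difference passed (edgeR adjusted p = 0.506 and 0.0732). The means were ordered LPD c-MET/β-catenin, LPD Vec, CD Vec and CD c-MET/β-catenin. With scaling to total counts alone, under which the median of all genes on CD is 0.278 rather than −0.01, the oncogene effect on CD was 0.37 for Fgfr4 and passed (edgeR adjusted p = 0.0208, range over 20 alternatives 0.0208 to 0.991), against 0.08 ± 0.12 (SE) with TMM.

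Fgfr1 (chr8:25518759-25575718, plus strand), the receptor through which Fgf21 acts in adipose tissue and brain, was scarce in liver. It held 7.18, 7.28 and 11.4 CPM in CD Vec, 8.32, 3.83 and 2.92 in CD c-MET/β-catenin, 4.75, 3.29 and 3.95 in LPD Vec, and 5.91, 5.02 and 5.95 in LPD c-MET/β-catenin. All LPD Vec libraries were below all CD Vec libraries, and replicate 1 of CD c-MET/β-catenin was within the CD Vec range while replicates 2 and 3 were not. The differences were −1.11 ± 0.35 (SE) for LPD minus CD in Vec livers and −0.77 ± 0.34 (SE) for c-MET/β-catenin minus Vec on CD, and neither passed (edgeR adjusted p = 0.241 and 0.101). Without CD c-MET/β-catenin replicate 1, the effect on CD was −1.35 and passed (edgeR adjusted p = 0.00343), as did the interaction at 1.84 (edgeR adjusted p = 0.0151, against 1.26 ± 0.49, SE, and 0.128 with all libraries). The means were ordered LPD Vec, CD c-MET/β-catenin, LPD c-MET/β-catenin and CD Vec. An antisense gene, Gm16159, overlaps Fgfr1, and the strand setting of the counting is not given in the sources used here.

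Per kilobase of exon, Fgfr4 exceeded Fgfr1 in every library, by 13.6-fold to 56.0-fold with a median of 22.9-fold, and Klb exceeded Fgfr1 by 6.96-fold to 25.9-fold. Fgfr4 exceeded Klb by 1.19-fold to 3.21-fold. The order Fgfr4, Klb, Fgfr1 was thus the same in all 12 livers. The other receptor genes Fgfr3 and Fgfr2, with means of 57.6 and 34.0 CPM in CD Vec livers, were not compared per kilobase.

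Of the other ligands, receptors and adaptors of endocrine FGF signalling (15 genes), 10 passed the filter. On CD, 3 were lower with c-MET/β-catenin: Fgfr2 (−1.51 ± 0.23, SE), Fgfr3 (−0.89 ± 0.17, SE) and the Ras activator Sos1 (−0.71 ± 0.14, SE), and none rose. These 3 of 10 were a smaller share than the 35.4% of all tested genes called, and the median over the 10 was −0.31, against −0.01 over all genes. The same 3 were higher on LPD than on CD in c-MET/β-catenin livers, at 1.99, 0.69 and 0.86 (3 of 10 against 20.0% of all tested genes), a comparison that shares the CD c-MET/β-catenin libraries. None was called on LPD or between diets in Vec livers, where the medians were both 0.05. Fgfr2 held 46.6, 20.9 and 34.4 CPM in CD Vec and 10.8, 11.8 and 13.3 in CD c-MET/β-catenin, without overlap, and its interaction of 1.72 ± 0.32 (SE) passed (edgeR adjusted p = 0.00993), though not with a term for the header runs or with the clock score described further on.

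Fgf15, the gut hormone that shares Klb, and Gfral, the Gdf15 receptor, had 0 counts in all 12 libraries, which allows up to 3 counts per library, counting error only. Ret, the partner of Gfral, had at most 1 count and Kl at most 4. Fgf23, the phosphate-regulating hormone made mainly by bone, did not pass the filter but had 251 counts (7.25 CPM) in CD c-MET/β-catenin replicate 1, 6 in replicate 2 and 0 in replicate 3 of that group, and at most 3 in any library of the other groups. It is named here after its values were seen.

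Among 15 genes that FGF receptor and ERK signalling is known to change, 6 rose and 2 fell with c-MET/β-catenin on CD, 8 of 15 against 35.4% of all tested genes, with a median of 0.67, and 1 fell without CD Vec replicate 1 or CD c-MET/β-catenin replicate 3. The immediate-early genes Fos (3.55 ± 0.89, SE) and Egr1 (3.24 ± 0.87, SE) and the transcription factor Etv4 (3.02 ± 0.50, SE) rose, and Cyp8b1 of bile acid synthesis fell (−3.01 ± 0.27, SE). On LPD only Cyp8b1 was called (−1.48 ± 0.26, SE; median over the list −0.10), and it was not called without replicate 1 or 3 of LPD Vec, nor without replicate 2 or 3 of LPD c-MET/β-catenin. None was called between diets in Vec livers, where Fgf21 was 11.3-fold higher (median 0.07). In c-MET/β-catenin livers Cyp8b1 was higher on LPD (1.92 ± 0.26, SE), and Fos, Etv4 and Dusp4 were lower at −3.70, −2.67 and −1.28 (4 of 15 called against 20.0% of all tested genes, median −0.75), and the number lower was 5 without replicate 3 of either CD group.

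Of 19 regulators known to act on either hormone gene, Atf4 among them, none rose with c-MET/β-catenin on CD and 5 fell: the bile acid receptor gene Nr1h4 (−1.10 ± 0.18, SE), Mlxipl, which encodes the glucose sensor ChREBP (−1.06 ± 0.26, SE), the fasting factor Creb3l3 (−0.81 ± 0.14, SE), Ppara (−0.67 ± 0.23, SE) and the kinase gene Eif2ak1 (−0.29 ± 0.10, SE). These 5 of 19 were a smaller share than the 35.4% of all tested genes called in this comparison, and the median of the list was −0.12. The number that fell was 3 without CD Vec replicate 1 or 3, and 3 others rose without CD Vec replicate 2, and 1 without LPD Vec replicate 1. In c-MET/β-catenin livers 4 of the 19 were higher on LPD and 1, Ppargc1a, was lower at −1.12, with a median of 0.21, and 5 of 19 called compares with 20.0% of all tested genes. None of the 19 was lower there without replicate 1 of CD c-MET/β-catenin or any one of the LPD c-MET/β-catenin libraries, and 2 were without CD Vec replicate 2. None was called on LPD or between diets in Vec livers (medians 0.07 and −0.08). Atf4 itself, which is controlled mainly in translation, had log2 fold changes between −0.32 and 0.34 in the 4 comparisons, and none passed.

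Many targets of Atf4 were up-regulated on CD. Of 20 listed genes 19 were tested, and on CD 13 rose and 2 (Shmt2 and Cth) fell with c-MET/β-catenin, 15 of 19 against 35.4% of all tested genes, with a median of 2.04 against −0.01 over all genes. The largest were the serine synthesis genes Phgdh (5.26 ± 0.91, SE) and Psat1 (4.68 ± 0.62, SE), the cystine transporter gene Slc7a11 (4.55 ± 0.61, SE) and the stress factor Atf3 (4.13 ± 0.79, SE). With a term for the header runs, which rests the CD c-MET/β-catenin level on replicate 3, fewer were called and the median was 1.55. In the middle run alone, with 1 library in each CD group, the median was 1.62. On LPD none was called and the median was 0.14, with 1 called without CD Vec replicate 2, CD c-MET/β-catenin replicate 1 or LPD c-MET/β-catenin replicate 1.

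Between diets in Vec livers, 4 of the 19 Atf4 targets rose and none fell, against 0.308% of all tested genes called, with a median of 0.93 against −0.03 over all genes. These were the asparagine synthetase gene Asns (22.3-fold, 4.48 ± 0.63, SE; edgeR adjusted p = 0.0227), Psat1 (15-fold, 3.91 ± 0.61, SE; 0.0262), Trib3, a pseudokinase gene (3.93-fold, 1.97 ± 0.31, SE; 0.0262), and the transcription factor Atf5 (2.89-fold, 1.53 ± 0.18, SE; 0.00987). Asns held 0.968, 0.284 and 1.72 CPM in CD Vec against 9.45, 25.3 and 32.6 in LPD Vec, and as for Fgf21 replicate 1, from the last header run, was the lowest of the LPD Vec livers. The number that rose was 1 without CD Vec replicate 2, LPD Vec replicate 2 or LPD Vec replicate 3, 2 without CD Vec replicate 3, 2 with a term for the header runs, 1 in the middle run alone, and 7 with DESeq2. A fit to the CD Vec and LPD Vec libraries alone called 0 of 18 tested, with a median of 0.97. In c-MET/β-catenin livers no target rose on LPD and 4 fell, Atf3, Ddit4, Slc7a11 and Slc7a5, between −2.89 and −1.11, with a median of −0.24. These 4 of 19 were close to the background of 20.0% of all tested genes called in this comparison. The number that fell there was 2 without replicate 1 or 2 of CD c-MET/β-catenin, and it was 0 without replicate 1 or 3 of LPD c-MET/β-catenin.

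**Figure D3:**
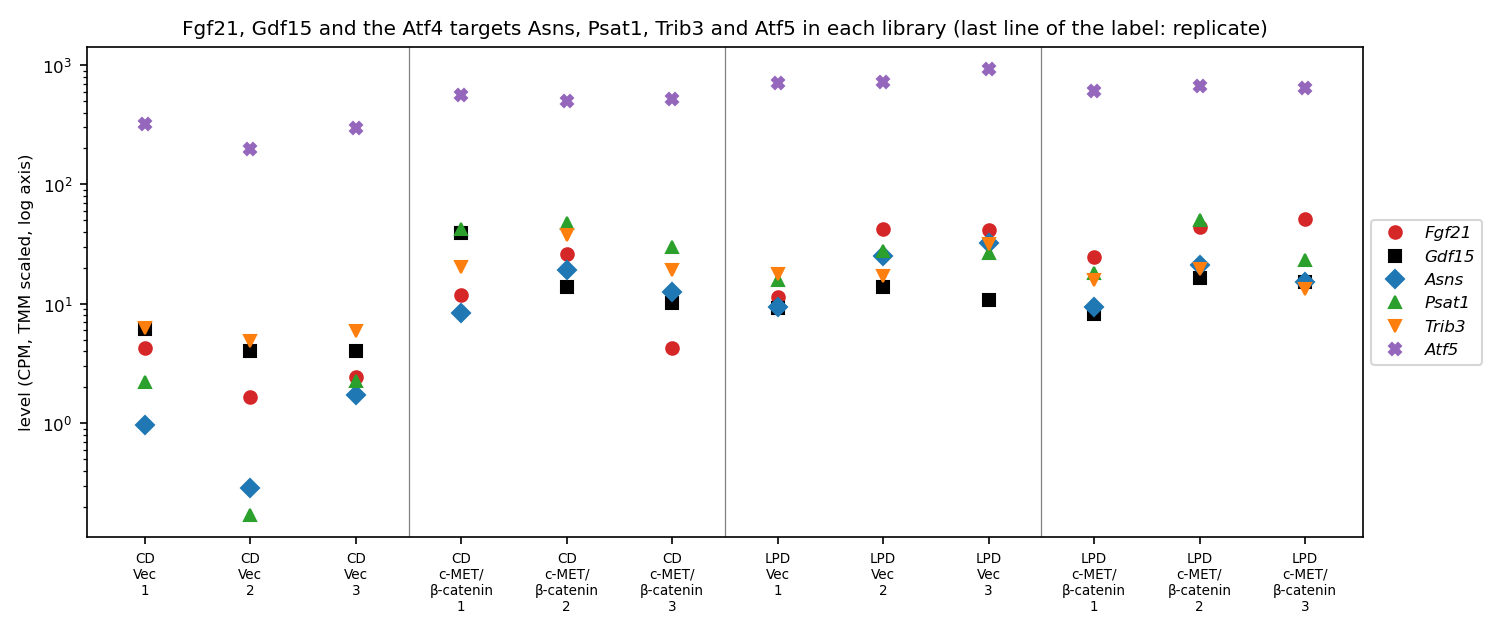
Level in CPM (vertical log axis) of Fgf21, Gdf15 and the 4 Atf4 targets called between diets in Vec livers, in each of the 12 libraries, with vertical lines between groups. Each marker is 1 gene in 1 mouse. In the CD Vec libraries Asns, at 0.284 to 1.72 CPM, and Psat1 lie far below their levels in the other groups, and the mean of Fgf21 is also lowest there.

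Sequences around a CARE match are shown for Fgf21 and the Atf4 targets that held one. A match was found in 7 of the 18 targets with a window, against 2.89% of the 10806 tested genes with one. The list was made of known Atf4 targets, so this excess could follow from the choice of list alone. Of the other lists, the secreted hormones had a match in 3 of 11 (Angptl8, Inhbe and Rbp4) and the ChREBP targets in 1 of 9 (G6pc), and the rest had none. Each is 29 bases of RefSeq sequence (GRCm38.p6), read 5′ to 3′ on the strand of the motif, with the 9 matching bases in capitals. Slc7a11 held another match on the other strand, in the stretch chr3:50443643-50443671, which is not printed.
Fgf21: cctggacggaTGATGCAATgggggggtct
Asns: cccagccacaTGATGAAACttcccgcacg
Trib3: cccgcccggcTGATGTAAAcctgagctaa
Chac1: ctggcaggagTGATGCAACggcagggaag
Atf3: gcggacttggTGATGCAAGtgcgagaagg
Nupr1: aagccctgtcTGATGCAATctggcccttt
Slc7a11: ctcatgtggcTGATGCAAAcctggagaat
Vldlr: ctaggagcgcTGATGCAACtattgctgct
The stretches lie at chr7:45615612-45615640 (Fgf21), chr6:7693214-7693242 (Asns), chr2:152344029-152344057 (Trib3), chr2:119351038-119351066 (Chac1), chr1:191183426-191183454 (Atf3), chr7:126625563-126625591 (Nupr1), chr3:50443661-50443689 (Slc7a11) and chr19:27216809-27216837 (Vldlr), before the start except in Trib3, where the match lies 14 to 22 bases from it. Fgf21 and Nupr1 shared all 9 letters. Of the 7 targets, Asns, Trib3, Atf3, Nupr1 and Slc7a11 rose with c-MET/β-catenin on CD, and Asns and Trib3 rose on LPD in Vec livers. Chac1 and Vldlr did not pass in any comparison despite their matches. Psat1 and Phgdh had none in their windows, and both rose with c-MET/β-catenin on CD, so the rise was not confined to targets with a match.

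Other pathways known to act on Fgf21 and Gdf15 were tested in the same way. Of 12 Ppara targets, 1 rose (Pdk4, 3.81 ± 0.64, SE) and 3 fell (Acadm among them, −0.73 ± 0.20, SE) with c-MET/β-catenin on CD, 4 of 12 against 35.4% of all tested genes, with a median of −0.47, and 2 rose without CD Vec replicate 1. None was called on LPD or between diets in Vec livers (medians 0.31 and 0.14), with 0 to 1 higher on LPD when 1 library was left out. In c-MET/β-catenin livers 3 were higher on LPD and Pdk4 was lower (4 of 12 against 20.0% of all tested genes, median 0.73). None of the 12 was lower there without replicate 1 of CD c-MET/β-catenin or replicate 1 or 3 of LPD c-MET/β-catenin, and the number higher was then 4, 5 and 2. Of 10 targets of ChREBP, which raises Fgf21 on sugar, 7 fell on CD (against 35.4% of all tested genes), Thrsp (−3.52 ± 0.37, SE) and Acly (−1.82 ± 0.54, SE) the most, with a median of −1.55, and the number was 3 without CD Vec replicate 1 or CD c-MET/β-catenin replicate 1 or 2. None was called on LPD (−0.55, with 0 to 1 lower when 1 library was left out) or between diets in Vec livers (−0.23). In c-MET/β-catenin livers 4 of 10 were higher on LPD (0.82), against 20.0% of all tested genes, or 2 without LPD c-MET/β-catenin replicate 1. Of 12 targets of p53, a known activator of Gdf15, 9 rose on CD (against 35.4% of all tested genes), led by the cell cycle inhibitor Cdkn1a (4.81 ± 0.91, SE) and Phlda3 (3.04 ± 0.35, SE), with a median of 1.27. Phlda3 was the p53 target called on LPD (2.06 ± 0.34, SE, list median 0.49). It was lost without any of the LPD Vec libraries or LPD c-MET/β-catenin replicate 2. With 1 library left out, 0 to 2 targets were called higher on LPD and 0 to 1 lower. None was called between diets in Vec livers (0.19). Btg2 fell on LPD in c-MET/β-catenin livers (−3.28 ± 0.51, SE, 1 of 12 against 20.0% of all tested genes, list median −0.32), where 3 fell without replicate 2 or 3 of CD c-MET/β-catenin. Cdkn1a reached 242 CPM in replicate 1 of CD c-MET/β-catenin (the library with the most Gdf15) against 22.8 and 36.0 in replicates 2 and 3.

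**Figure D4:**
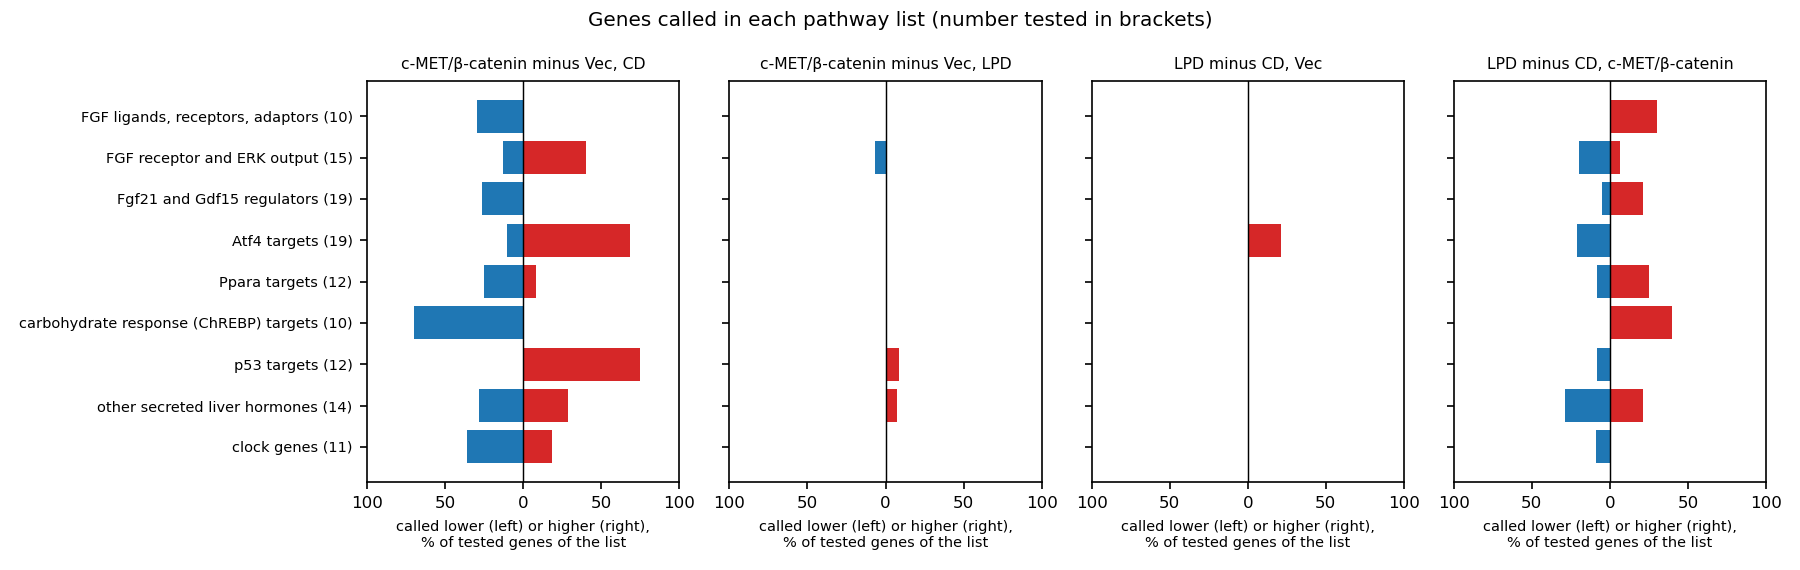
Share of the tested genes of each list that were called higher (red, right of 0) or lower (blue, left of 0), in percent (horizontal axis), in 4 comparisons. Numbers in brackets are genes tested. The panel for LPD minus CD in Vec livers holds a bar for the Atf4 targets, 4 of 19, and for no other list.

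Of 14 other hormones and secreted factors of the liver, 4 rose and 4 fell with c-MET/β-catenin on CD (8 of 14 against 35.4% of all tested genes, median −0.58), with Igfbp1 rising the most (5.48 ± 0.87, SE) and Angptl6 falling the most (−2.15 ± 0.32, SE). On LPD 1 rose, Lect2 (1.31 ± 0.24, SE; median −0.18), which was not called without any of the LPD Vec libraries, nor without replicate 1 or 2 of LPD c-MET/β-catenin. Between diets in Vec livers none was called (median 0.23), and in c-MET/β-catenin livers 3 were higher and 4 lower on LPD, Igfbp1 at −3.62 among the lower (7 of 14 against 20.0% of all tested genes, median 0.20), or 1 higher and 3 lower without LPD c-MET/β-catenin replicate 3. Igfbp1, which binds insulin-like growth factors and is also raised by amino acid shortage, held 9.17, 9.84 and 51.9 CPM in CD Vec and 2213, 570.2 and 385.6 in CD c-MET/β-catenin, with no overlap.

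Clock genes, listed because both hormone genes vary over the day, gave 2 higher (Npas2 5.46 ± 0.97 and Arntl 3.45 ± 0.76, SE) and 4 lower of 11 with c-MET/β-catenin on CD, 6 of 11 against 35.4% of all tested genes, with a median of −0.62. Only 1 was lower without replicate 1 or 3 of either CD group, and 2 were without LPD Vec replicate 2 or replicate 2 or 3 of LPD c-MET/β-catenin. None was called on LPD (median −0.05) or between diets in Vec livers (−0.46, with 0 to 1 higher and 0 to 1 lower when 1 library was left out). In c-MET/β-catenin livers Npas2 alone was called (−2.85 ± 0.75, SE, 1 of 11 against 20.0% of all tested genes, median 0.27). None was called there without replicate 1 of CD c-MET/β-catenin or replicate 1 or 3 of LPD c-MET/β-catenin, and 4 were higher and 2 lower without replicate 2 of CD c-MET/β-catenin. A clock score, the standardized level of 6 such genes minus that of Arntl, Npas2 and Clock, was −3.30 and −3.02 in CD c-MET/β-catenin replicates 1 and 3, and between −0.45 and 1.66 in the other 10 libraries. With that score as a covariate the oncogene effect on CD was 3.17 for Fgf21 and passed, and 1.48 for Gdf15 and did not (edgeR adjusted p = 0.138, range over 20 alternatives 1.28e-05 to 0.393). The LPD effect on Fgf21 in Vec livers was then 4.0 and passed (edgeR adjusted p = 0.0495).

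**Figure D5:**
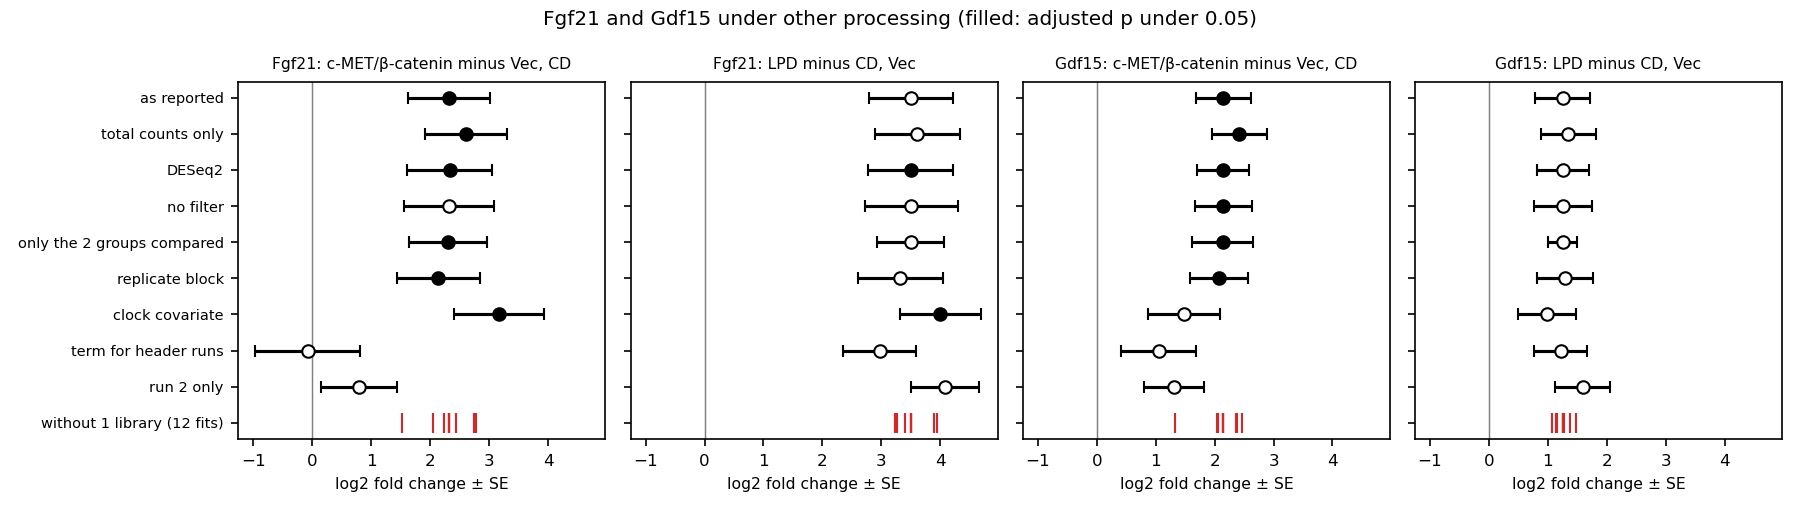
Log2 fold change of Fgf21 and Gdf15 (horizontal axis, bars ± SE) for c-MET/β-catenin minus Vec on CD and LPD minus CD in Vec livers, as reported and under 8 other settings, with filled points at an adjusted p under 0.05 and red ticks for the 12 fits without 1 library. The LPD effect on Fgf21 stays between 2.97 and 4.08 throughout, while its oncogene effect on CD runs from −0.08 to 3.17.

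The genes most like each member over the 12 libraries were found by Pearson r of log2 CPM among tested genes with a mean of at least 5 CPM. For Fgf21 these were Rcc2 (r = 0.895), Eps15 (0.886) and Stat6 (0.868), and after centring on group means r was 0.461, 0.809 and 0.299. For Gdf15 they were Rbpms (0.95), Ldha (0.945) and Map4k4 (0.932), and r stayed at 0.904 or above after centring. For Klb they were Hps1, Cd55 and Chdh (0.913 to 0.906), for Fgfr1 Arid5b, Kat6b and Rnd3 (0.892 to 0.845) and for Fgfr4 Rbmx, Sys1 and Ankrd49 (0.891 to 0.868). Fgf21 and Gdf15 had r = 0.64 with each other, and 0.48 after centring. All these values describe 12 libraries that share group, scaling and run.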

How the data were processed

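Bulk liver RNA of 12 mice (4 groups of 3, from the sample titles) was measured by RNA-seq. The authors mapped reads to mm10 with HISAT2, counted them per gene with featureCounts and deposited 1 table of raw counts by Entrez ID. Versions, strand setting and the handling of multimapped reads are not given in the sources used here; the labels name rRNA depletion and the processing notes name DESeq. Of 27179 IDs, 25275 matched RefSeq and 18 GENCODE symbols. Genes were filtered with filterByExpr, scaled by TMM and tested with edgeR 4.0.16 (quasi-likelihood, robust, 1 coefficient per group, all 12 libraries, limma 3.58.1, R 4.3.3) with Benjamini-Hochberg adjustment over 13947 genes and a threshold of 0.05. The 5 contrasts were the oncogene effect on each diet, the diet effect in each genotype and the interaction, with 2 further group pairs for ordering. Differences are fitted log2 fold changes, and levels are TMM-scaled CPM, per kilobase of GENCODE M21 exon where genes were compared. Alternatives were total-count scaling, DESeq2 1.42.0, no filter, 2-group fits, replicate number, header run or clock score as terms, leaving out each library and, added after seeing the data, the middle header run alone. Named genes were the 5 members, the 2 to 4 largest called changes of each list and the 3 most alike genes per member; a few others are named where a result turned on them. Members, lists and tests were chosen with earlier results of these data known. Replicates are separate mice by the study's design. Some genes of the Ppara list are not reported here by name. The fit was tested on simulated data.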

Additional observations from a re-analysis of the deposited data

Results flagged for a closer look

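The interaction, the oncogene effect on LPD minus the oncogene effect on CD, passed the edgeR test (adjusted p under 0.05) for none of Fgf21, Gdf15, Klb, Fgfr1 and Fgfr4 and for 21 genes of the lists. Over all tested genes it passed for 1243 of 13947, or 8.91%. Replicates 1 and 2 of CD c-MET/β-catenin are alone in the first header run, so a term for these runs leaves replicate 3 to set that group's level. With that term edgeR called 0 of the 21, and all 21 kept their direction. Of the 21, 4 were called with the clock score, 5 in the middle run alone (1 library in each CD group), 11 without the filter, 13 with the replicate block, 19 with total counts, all 21 with DESeq2, and 7 to 19 without 1 library. The interactions were as follows on the log2 scale, without the header term. Among Atf4 targets the interaction was below 0 for Asns (−4.28), Trib3 (−2.63), Atf5 (−1.25), Ddit4 (−2.85), Psat1 (−4.29), Phgdh (−4.56), Mthfd2 (−2.94) and Slc7a5 (−2.10), which is 8 of 19 against 8.91% of all tested genes. In FGF signalling it was 1.72 for Fgfr2, −4.49 for Egr1 and 1.54 for Cyp8b1. Among regulators it was 0.94 for Nr1h4 and 0.96 for Creb3l3. It was −3.54 for the Ppara target Pdk4, 2.14 for the ChREBP target Thrsp and −2.89 for the p53 target Btg2. Each was the only call in its list of 10 to 12 tested genes, near the share over all genes. Among other secreted factors it was −4.62 for Igfbp1, −1.14 for Ahsg and −2.19 for Fgl1, and among clock genes −5.07 for Npas2 and 1.86 for Per2. Without 1 library, between 5 and 9 of the 19 Atf4 targets were called, the 5 being without LPD Vec replicate 3 or LPD c-MET/β-catenin replicate 3. In the other lists, each of which had at most 3 such genes, leaving out single libraries of any group changed the number called by over 1.5 times.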

How the results depend on the processing

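Of 495 values of the 5 genes under the alternatives, 454 kept their direction and side of the threshold. The replicate numbers did not pair the libraries (r of same-numbered deviations −0.183 to 0.167 over 18 pairs, 2 over 0.1), and the replicate block changed none of the 25 calls of the 5 genes; it gave 4520, 151, 16, 2380 and 812 called genes for the oncogene effect on CD and on LPD, the diet effect without and with the oncogenes, and the interaction, where the reported fit gave 4933, 184, 43, 2784 and 1243. Where values changed, the cause was not tested, except that 2-group and middle-run fits hold fewer libraries. The middle run has 1 library in each CD group, which is assumed to vary like the LPD libraries. The header term leaves the CD c-MET/β-catenin level to replicate 3.

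For the oncogene effect on CD, Fgf21 was 2.32 without the filter (adjusted p = 0.061), −0.08 with the header term and 0.79 in the middle run; Gdf15 was 1.05 with the header term, 1.48 with the clock score and 1.31 in the middle run; Fgfr1 was −1.98 in the middle run (0.00912); Fgfr4 was 0.37 with total counts (0.0208) and −0.0047 with the clock score. On LPD, Fgf21 was −0.07 in the middle run. For diet in Vec livers, Fgf21 was 3.5 with DESeq2 (0.000242) and 4.0 with the clock score (0.0495), Fgfr1 was −1.67 in the middle run (0.0316), and Fgfr4 was 0.10 with total counts and 0.0023 without the filter. For diet with the oncogenes, Fgf21 was 3.23 in the middle run (0.0218), Gdf15 was 0.39 with the header term and 0.39 in the middle run, and Fgfr4 was −0.40 with total counts (0.0279). For the interaction, Fgf21 was 0.25 with the header term, Gdf15 −1.91 with DESeq2 (0.0214) and Fgfr1 2.61 in the middle run (0.017).

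Called genes for the oncogene effect on CD numbered 3014 in the 2-group fit, 945 with the header term, 2038 with the clock score and 1745 in the middle run. On LPD they numbered 471 with DESeq2, 505 in the 2-group fit and 75 with the header term. For diet in Vec livers they numbered 66 with total counts, 340 with DESeq2, 3 in the 2-group fit, 16 with the header term and 136 in the middle run. For diet with the oncogenes they numbered 618, 1733 and 1720 with the header term, the clock score and the middle run, and for the interaction 2032, 85, 260 and 390 with DESeq2, the header term, the clock score and the middle run.

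Leaving out each library in turn gave these ranges where a call or a direction changed. The oncogene effect on CD was 1.53 to 2.77 for Fgf21 and −1.35 to −0.50 for Fgfr1, and on LPD −0.07 to 0.60 for Fgf21 and −0.29 to 0.04 for Klb. The diet effect in Vec livers was 3.23 to 3.95 for Fgf21, called without CD c-MET/β-catenin replicate 2 or 3 or LPD Vec replicate 1, and −0.07 to 0.03 for Fgfr4. In c-MET/β-catenin livers it was 1.08 to 2.30 for Fgf21, −0.99 to 0.15 for Gdf15 and −0.12 to 0.74 for Fgfr1. The interaction was −2.24 to −1.09 for Gdf15, which was called (adjusted p = 0.0338) once replicate 3 of CD c-MET/β-catenin was left out, and 0.99 to 1.84 for Fgfr1. Counts of called genes ran from 4251 to 4859, 52 to 254, 5 to 104, 1585 to 3660 and 391 to 1404 in the same order of comparisons. Scaling to total counts moved the median of all genes by 0.288 on CD, 0.11 on LPD, 0.103 for diet in Vec livers and −0.178 in the interaction.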
